A study of Mus musculus with 3 samples.

Results

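Astrocyte sub-cluster 2 is 1 of the 5 groups, numbered 0 to 4, into which the authors divided the astrocyte nuclei of mouse lumbar spinal cord, and its members are the nuclei with the deposited cell type Astrocyte and the deposited sub-cluster number 2. It held 220 of 1555 astrocyte nuclei (14.1%) and of 14662 nuclei of all types, and 17.8% of the astrocyte UMIs (unique molecular identifiers, each 1 counted RNA molecule). The other sub-clusters held 524 (sub-cluster 0), 438 (1), 195 (3) and 178 nuclei (4). The study asked how cells of the cord differ in an inherited form of amyotrophic lateral sclerosis. Single-nucleus RNA sequencing was done on 12 mice aged 90 days, of which 6 (3 of each sex) belonged to the strain B6.Cg-Tg(SOD1*G93A)1Gur/J, with many copies of a mutant human SOD1 transgene (SOD1G93A), and 6 (3 of each sex) were C57BL/6J littermates without it (WT). The transgene is driven by the human SOD1 promoter and is expressed in many cell types, so that a difference in astrocytes need not arise in astrocytes. Nuclei were hashtagged by mouse and joined into pools A, B and C, and a pool held 1 mouse of every combination of sex and genotype, 4 in all.

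Astrocytes take up glutamate and potassium released by active neurons, line blood vessels with end-feet rich in the water channel aquaporin 4, and supply neurons with lactate and lipids. In the cord, protoplasmic astrocytes lie in grey matter among synapses and fibrous astrocytes, rich in the filament protein GFAP, lie in white matter. In amyotrophic lateral sclerosis astrocytes become reactive, with more GFAP, and loss of the glutamate transporter encoded by Slc1a2 is a long-studied feature of the disease.

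The nuclei of sub-cluster 2 carried astrocyte transcripts at a lower level than those of any other astrocyte sub-cluster, beside neuronal transcripts at a higher level. Levels are given as CPM, the UMIs of a gene per 1000000 UMIs in the nuclei of a sub-cluster in 1 mouse, averaged over the 11 mice with at least 5 nuclei in sub-cluster 2. In sub-cluster 4 only 9 of these mice had at least 5 nuclei, and its means are over those 9. The 10 astrocyte identity genes summed to 3789 ± 686 CPM (SD, n = 11), against 7293 to 12579 CPM in the other sub-clusters and 200 CPM in neurons (a sum over all mice). Each of the 10 genes was lowest in sub-cluster 2. The 7 neuron marker genes summed to 8443 ± 1857 CPM, against 1367 to 3292 CPM in the other sub-clusters and 15484 CPM in neurons. Of the 7 neuron markers, 5 were highest in sub-cluster 2. Among the 7, Meg3, a nuclear long non-coding RNA abundant in neurons, stood at 4537 ± 1104 CPM. Rbfox3, which encodes the neuronal nuclear protein NeuN, stood at 164 ± 75.8 CPM. Since the nuclei were grouped on the expression of these and other genes, these differences are a description and were not tested.

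Other cell types left smaller traces. The 7 oligodendrocyte marker genes summed to 1163 ± 494 CPM in sub-cluster 2, within the 683 to 5442 CPM of the other astrocytes, and the 4 markers of oligodendrocyte precursors to 212 ± 100 CPM. Summed markers of microglia (75.8 CPM), vascular cells (43.0 CPM), ependymal cells (11.03 CPM), and Schwann and meningeal cells (32.2 CPM) were each at most 96.5 CPM in every astrocyte sub-cluster. At 0 UMIs in sub-cluster 2 were 1 of 6 microglial markers (Tmem119), 0 of 6 vascular markers, 1 of 4 ependymal markers (Ccdc153) and 3 of 6 Schwann and meningeal markers, while 1 microglial and 1 Schwann or meningeal marker had their highest mean there. The median nucleus had 0.528% mitochondrial UMIs, below sub-clusters 0 (1.37%), 3 (1.84%) and 4 (6.08%) and above sub-cluster 1 (0.310%).

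The neuronal transcripts lay mostly in a minority of deeply covered nuclei. A line at 8000 UMIs per nucleus, drawn after the values had been seen, divided sub-cluster 2 into 60 deep and 160 shallow nuclei, with 14 nuclei between 6000 and 10000 UMIs. The deep nuclei were 27.3% of the members and held 73.1% of their UMIs. Their median was 17499 UMIs, against 2593 in the shallow nuclei, 5478 in the other astrocytes and 12865 in neurons.

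The deep nuclei had 97.3 neuron marker UMIs per 10000 UMIs at the median and 40.2 at the lowest, where the median neuron had 151. A line at 40 on this measure was also drawn after the values had been seen, just under the lowest deep nucleus, so that all 60 lie above it by its choice. The median deep nucleus held 169 UMIs of the neuron markers (neurons, 197) and 46.5 of the astrocyte identity genes (other astrocytes, 54, and neurons, 2). The 222 other astrocytes over 8000 UMIs, with a median of 9668 UMIs, held 107 UMIs of the astrocyte identity genes and 11 of the neuron markers at the median, and 31 of them had more than 40 neuron marker UMIs per 10000. In sub-cluster 4, 57 of the 178 nuclei did so, against 88 of the 220 of sub-cluster 2, 17 of 524 in sub-cluster 0, 3 of 438 in sub-cluster 1 and 8 of 195 in sub-cluster 3. The median deep nucleus carried 1649 hashtag UMIs, which was 1.24 times the median of its own mouse, and the median was higher than in the other astrocytes in 11 of 12 mice. The median was 1408.5 hashtag UMIs in the other astrocytes over 8000 UMIs and 1427 in neurons, each 1.03 times the median of the mouse. The part of depth in the hashtag counts was not tested.

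The 160 shallow nuclei differed from this picture. Their median nucleus held 19.6 neuron marker UMIs and 63.6 astrocyte identity UMIs per 10000, against 12.5 to 24.5 and 70.8 to 134 in the median nuclei of the other sub-clusters, and 28 of the 160 were above 40 for the neuron markers. They carried 1216 hashtag UMIs at the median, 0.901 times the median of their mouse, higher than the other astrocytes in 1 of 12 mice. The authors removed nuclei with the hashtags of several mice. Doublets of nuclei from 1 mouse carry 1 hashtag and are not marked, no doublet caller was run here, and the part of doublets or of free RNA in these values was not tested. Of the cell barcodes, 15 occurred in 2 libraries, 0 of them in sub-cluster 2.

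**Figure D1:**
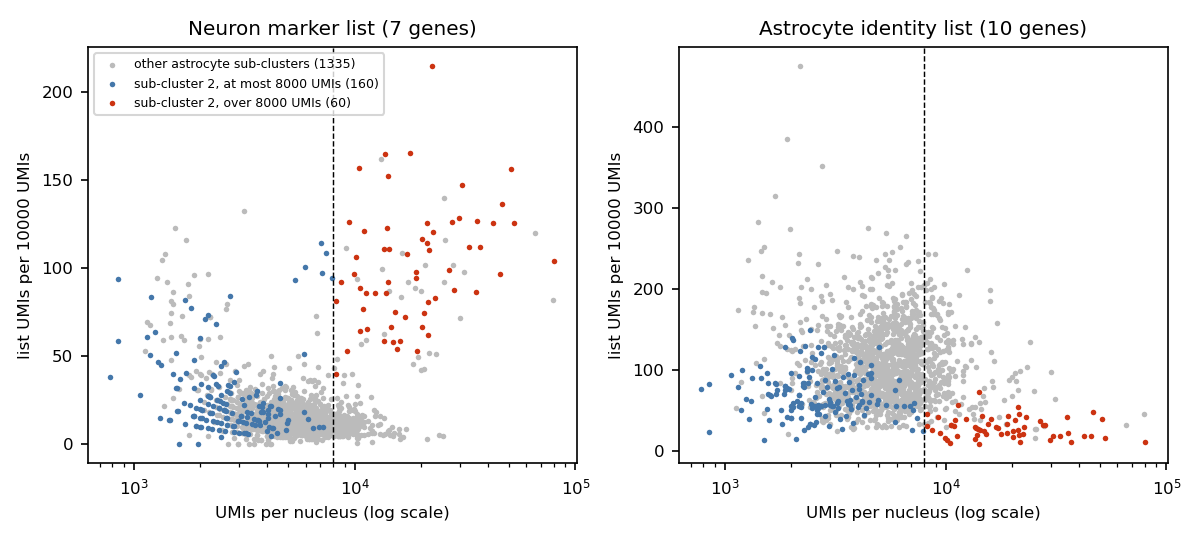
UMIs per nucleus (log scale) of every astrocyte nucleus against the UMIs of 7 neuron markers (left) and of 10 astrocyte identity genes (right) per 10000 UMIs, with a dashed line at 8000 UMIs. The 60 deep nuclei of sub-cluster 2 (red) all lie above 40 on the left. So do 28 of its 160 shallow nuclei (blue) and 85 of the 1335 other astrocytes (grey). The shallow nuclei have fewer UMIs than the other astrocytes (medians 2593 and 5478) and lower values on the right (medians 63.6 and 103).

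The 3 genes that mark astrocytes in general were present and low. Aqp4, the water channel of the end-feet, stood at 244 ± 123 CPM (n = 11), ranging from 139.9 to 505 CPM over the mice, against means of 387 to 2069 CPM in the other sub-clusters. It was the lowest of the 5 sub-clusters in 7 of the 9 mice that had at least 5 nuclei in each. Gfap stood at 75.8 ± 61.1 CPM, against 107 to 1287 CPM, and was lowest in 5 of 9 mice. Levels in the shallow or the deep nuclei, here and below, are taken over their UMIs in all mice together. They are not means over mice and have no spread, unlike the levels of the sub-clusters set beside them. In the shallow nuclei Aqp4 amounted to 365 CPM and Gfap to 105 CPM, close to the lowest means among the other sub-clusters. In the deep nuclei they amounted to 204 and 69.9 CPM.

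Slc1a2, the main astrocyte glutamate transporter, stood at 2588 ± 516 CPM, against 5347 to 7220 CPM, and was lowest in 9 of 9 mice. Its 2282 UMIs in the shallow nuclei amounted to 4812 CPM there, close to the lowest mean among the other sub-clusters, and its 2269 UMIs in the deep nuclei to 1762 CPM. In neurons it stood at 101 CPM.

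**Figure D2:**
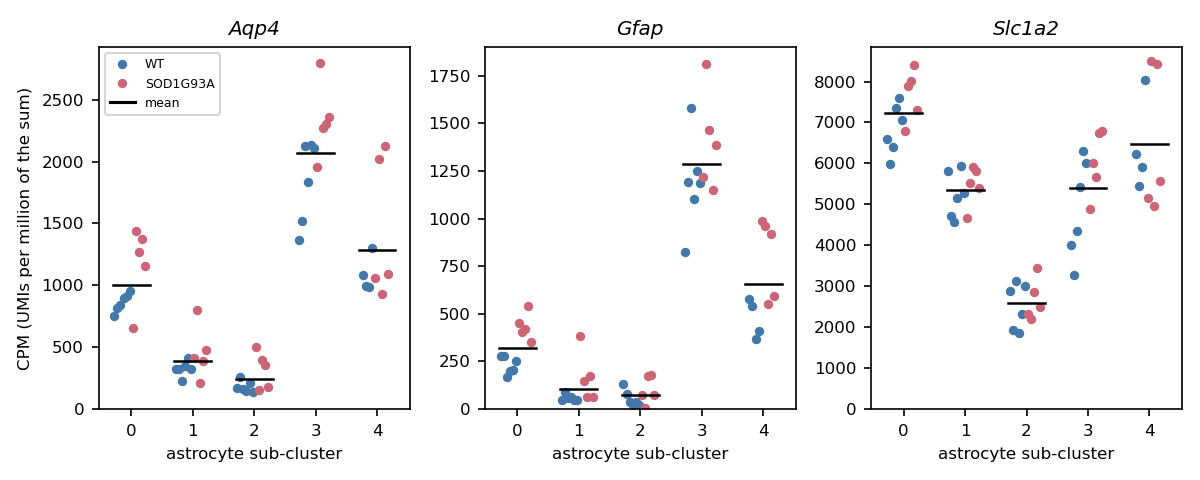
CPM of Aqp4, Gfap and Slc1a2 in the 5 astrocyte sub-clusters, with the mean as a black line. Each point is 1 mouse with at least 5 nuclei both there and in sub-cluster 2 (WT blue, SOD1G93A red). Sub-cluster 2 has the lowest mean of each gene, 244, 75.8 and 2588 CPM.

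The genes with the largest excess in sub-cluster 2 over the other astrocytes were also high in neurons. The 20 leading genes, ranked by the log2 ratio of their mean CPM (plus 5) to that of the highest other sub-cluster, had ratios of 2.23 to 3.16. Among them, Hs3st5, a heparan sulfate sulfotransferase, stood at 553 ± 148 CPM against at most 90.6 CPM elsewhere, and was highest in sub-cluster 2 in 9 of 9 mice. Cntnap5a, a contactin-associated adhesion protein, stood at 920 ± 394 CPM against at most 173 CPM. Dlgap2, a scaffold of the postsynaptic density, stood at 401 ± 204 CPM against at most 75.1 CPM.

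The list also held Ebf2, a transcription factor, Slit1, an axon guidance ligand, Syt16, of the synaptotagmin family, Pde11a, a phosphodiesterase, and Stac, Sidt1, Vwc2l and Plcxd3. Its remaining members were Hpse2, described below, and the little characterised Gm15398, Nrg3os, 4930555F03Rik, 5530401A14Rik, Gm26905, Gm20642, Gm15261 and Gm45321. Each of the 20 was higher in neurons than in any other astrocyte sub-cluster. The deep nuclei held 94.1% of the UMIs of these genes, and at least 90% of those of 18 of the 20.

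The shallow nuclei had few leading genes of their own. Ranked in the same way on the pooled UMIs of the 160 shallow nuclei, the first was Pkd1l2, all of whose 56 UMIs lay in 1 nucleus. Next came Kcnmb2, a subunit of calcium-activated potassium channels, with a log2 ratio of 0.93 and 19 of 33 UMIs in 1 nucleus, P4htm with 0.88 and Me3 with 0.79.

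The genes lowest in sub-cluster 2, with log2 ratios of -1.44 to -1.11 to the lowest other sub-cluster, included Pax3, Acss3, Glis3, Slc25a21, Plscr4, Dbx2, Arhgef4, Mlc1 and Folh1. Pax3, a transcription factor of the dorsal cord, stood at 35.0 ± 25.7 CPM against at least 104 CPM elsewhere. Glis3, another transcription factor, stood at 89.0 ± 50.6 CPM against at least 210.0 CPM, and Mlc1, a membrane protein of astrocyte end-feet, at 26.8 ± 14.5 CPM against at least 64.3 CPM. All 10 genes ranked lowest were higher in the shallow than in the deep nuclei.

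Gene lists of astrocyte functions gave the same order of levels. Members of the lists for glutamate and GABA uptake and breakdown (9 of 13), for water, potassium and gap junctions (11 of 15), for lipid transport and cholesterol synthesis (20 of 25), and for glycolysis, glycogen and lactate (18 of 24) were lowest in sub-cluster 2. The lipid list, which includes Apoe, the main lipid carrier of the cord, summed to 1697 ± 266 CPM in sub-cluster 2, 1354 CPM in its deep nuclei and 2773 CPM in its shallow nuclei, against 2347 to 7431 CPM in the other sub-clusters. The antioxidant enzymes summed to 697 ± 217 CPM, against 843 to 3207 CPM. In the shallow nuclei alone, all mice together, the antioxidant (1021 CPM), lipid (2773 CPM) and glycolysis (2102 CPM) lists lay within the range of the means of the other sub-clusters. For glycolysis that range ran from 1823 to 4167 CPM. The uptake list (7983 CPM) lay at the lower end of its range of 7938 to 11356 CPM. The water and potassium list (11211 CPM) lay below its range of 11895 to 14437 CPM.

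Lists of astrocyte location, metal handling and reactivity followed. Fibrous astrocyte genes summed to 229 ± 100 CPM, near the 242 CPM of sub-cluster 1 and below the 2700 CPM of sub-cluster 3. Protoplasmic astrocyte genes summed to 10018 ± 2414 CPM, and to 17982 CPM in the shallow nuclei alone, against 8822 to 21314 CPM elsewhere. The metallothionein, iron and zinc list summed to 973 ± 284 CPM, near sub-cluster 1 (1100 CPM) and below sub-clusters 0, 3 and 4 (3243 to 8944 CPM). Pan-reactive genes summed to 112 ± 66.7 CPM, against 146 to 1682 CPM. In the shallow nuclei alone the fibrous list amounted to 289 CPM, the metallothionein, iron and zinc list to 1815 CPM and the pan-reactive list to 143 CPM.

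Glutamate receptor genes ran the other way. The 21 genes summed to 14114 ± 1306 CPM against 7927 to 8324 CPM in the other sub-clusters and 19937 CPM in neurons, and 14 of them were highest in sub-cluster 2. Grm5, a metabotropic receptor, stood at 1496 ± 591 CPM against at most 403 CPM elsewhere, and Grin2a, an NMDA receptor subunit, at 286 ± 89.8 CPM against at most 77.5 CPM. The shallow nuclei, at 8769 CPM, were close to the other astrocytes for the whole list.

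The remaining lists lay within or below the range of the other sub-clusters. Genes of the Notch, Bmp and hedgehog responses summed to 1063 ± 227 CPM, below the 2023 to 2633 CPM elsewhere. Those of Stat3 and the IL-6 family, which drive astrocyte reactivity, summed to 503 ± 77.0 CPM, below 748 to 941 CPM. In the shallow nuclei alone the sums were 1908 CPM for the Notch, Bmp and hedgehog list and 713 CPM for the Stat3 list. Complement genes summed to 255 ± 65.6 CPM (271 to 935 CPM elsewhere). The A1 reactive list summed to 106 ± 40.3 CPM (97.9 to 159 CPM) and the A2 reactive list to 10.4 ± 6.98 CPM (11.4 to 124 CPM). Synaptogenic and synapse-pruning factors (13789 ± 1750 CPM), genes of dorsoventral position (354 ± 91.1 CPM) and immediate early genes (85.4 ± 30.7 CPM) lay within the range of the other sub-clusters. In the shallow nuclei alone the complement (308 CPM), A1 (133 CPM), A2 (14.8 CPM), synaptogenic (16643 CPM) and immediate early (103 CPM) lists lay within that range. The dorsoventral genes amounted to 234 CPM there, below their range of 270 to 764 CPM, and to 356 CPM in the deep nuclei.

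The share of astrocyte nuclei that fell in sub-cluster 2 varied widely between mice of 1 genotype. In WT mice it ran from 3.04% (male, pool A, 7 of 230 nuclei, 95% Wilson interval 1.48 to 6.15%) through a median of 16.1% to 25.9% (female, pool A, 28 of 108, 18.6 to 34.9%). In SOD1G93A mice it ran from 5.56% (female, pool C, 3 of 54, 1.91 to 15.1%) through a median of 10.9% to 31.5% (male, pool B, 40 of 127, 24.1 to 40.02%). These intervals cover counting error only, and within each genotype those of the lowest and the highest mouse did not overlap. The mean was 15.8 ± 7.91% (n = 6) in WT and 13.3 ± 9.65% (n = 6) in SOD1G93A mice, the ranges overlapped over most of their length, and the SOD1G93A mouse had the larger share in 3 of the 6 pairs of the same sex and pool. By pool the share ran from 3.04 to 25.9% in A, 14.3 to 31.5% in B and 5.56 to 21.1% in C. Gm45321, 1 of the 20 leading genes, passed the genotype test over all astrocytes (log2 fold change -1.36, limma, adjusted p = 0.0744), as did 2.29% of all genes tested there, and in sub-cluster 2 alone it did not pass (-1.16, limma, adjusted p = 0.943). Since a gene ranked as leading had passed, the shares are given as a description and were not tested.

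Most of the variation between mice lay in the shallow nuclei. These made up 12.0 ± 7.84% of astrocytes in WT and 8.97 ± 9.78% in SOD1G93A mice, while the deep nuclei made up 3.75 ± 1.57% and 4.28 ± 2.59%. In each mouse the deep nuclei held at least 50.6% of the UMIs of the sub-cluster, up to 88.1% in WT and 97.9% in SOD1G93A mice. Sums of UMIs over sub-cluster 2 therefore weighted the deep nuclei most.

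**Figure D3:**
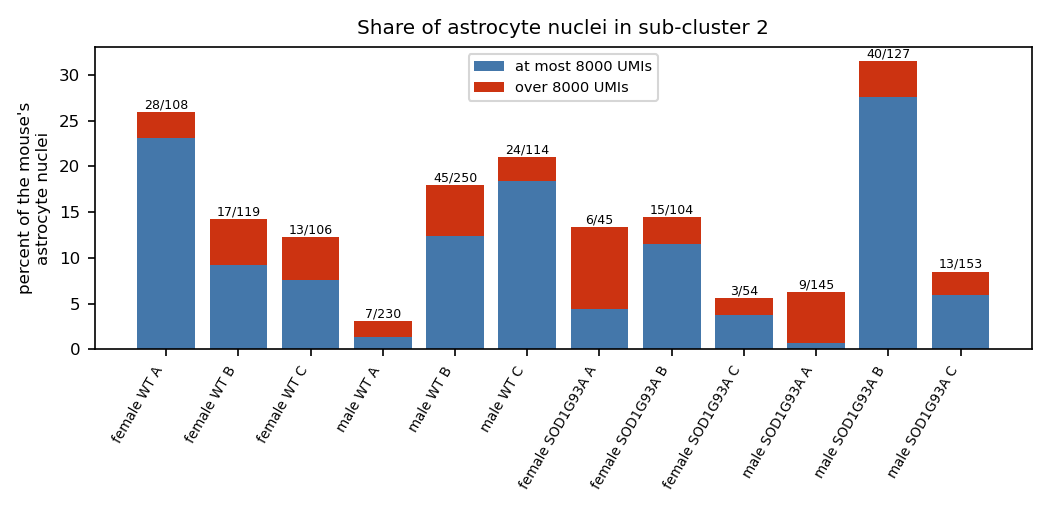
Percent of the astrocyte nuclei of each of the 12 mice that lay in sub-cluster 2, as bars from 0 divided into nuclei of at most 8000 UMIs (blue) and over 8000 UMIs (red), with nuclei of sub-cluster 2 over astrocyte nuclei above each bar. The shares run from 3.04 to 25.9% in WT and from 5.56 to 31.5% in SOD1G93A mice.

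For the effect of genotype, the UMIs of each gene in sub-cluster 2 were added up within a mouse and the sums compared with limma's voom method, with a term for each group of sex and genotype and a term per pool. The sums held 13014 to 448266 UMIs per mouse (median 110943), from 3 to 45 nuclei. A fold change is the mean over both sexes of SOD1G93A against WT, and genes with a Benjamini-Hochberg adjusted p below 0.1 over all genes tested are called. A lower sum of an RNA can come from fewer nuclei that hold it or from less of it in each, and these cannot be told apart in the sums. Of 2658 genes tested, 2 were called (0.0752%), Sod1 and Epha6, both higher in SOD1G93A mice, with 139 genes at an unadjusted p below 0.05 and a median log2 fold change of -0.01 over all genes.

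Sod1 (chromosome 16, 90220754 to 90226329, mm10), which encodes the cytosolic superoxide dismutase, rose by a log2 fold change of 1.34 (SE 0.26, limma, adjusted p = 0.0701). It stood at 34.2 CPM in the lowest, 77.2 at the median and 345 in the highest of the 6 WT mice, and at 119, 227 and 581 CPM in the SOD1G93A mice. The groups overlapped through 1 mouse, the female WT mouse of pool A at 345 CPM, the other 5 WT mice being at most 82.9 CPM. Sod1 was higher in the SOD1G93A mouse in 5 of 6 pairs, and the values rest on 89 UMIs in WT and 189 in SOD1G93A mice.

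The transgene is human, the reads were aligned to the mouse genome, and whether reads of the human transcript were counted as mouse Sod1 was not tested. Sod1 was also higher in SOD1G93A mice in the other astrocytes (log2 fold change 2.41, adjusted p = 1.27e-10) and in neurons (1.29, adjusted p = 0.00246), both with limma on the same 12 mice. The difference of the effect between sub-cluster 2 and the other astrocytes was -1.02 (SE 0.29, adjusted p = 0.440, limma).

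Epha6 (chromosome 16, 59653483 to 60605531), a receptor tyrosine kinase for ephrin-A ligands that guides axons, rose by a log2 fold change of 1.04 (SE 0.20, limma, adjusted p = 0.0701). It stood at 174, 311 and 386 CPM (lowest, median, highest) in WT and at 231, 613 and 816 CPM in SOD1G93A mice, and the SOD1G93A mouse was higher in 6 of 6 pairs. The ranges overlapped through the female SOD1G93A mouse of pool C, which had 3 nuclei and 3 Epha6 UMIs, the other 5 being at least 562 CPM. In sub-cluster 2, 760 of its UMIs lay in deep and 52 in shallow nuclei. In neurons the log2 fold change was -0.02 (SE 0.07, limma, adjusted p = 1.00), and in the other astrocytes 0.26 (SE 0.29, adjusted p = 0.687). The difference of the effect between sub-cluster 2 and the other astrocytes did not pass (0.55, SE 0.58, limma, adjusted p = 0.946).

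Nav3 (chromosome 10, 109681259 to 110456204), a microtubule-associated protein of the neuron navigator family named after its values were seen, did not pass (log2 fold change 0.74, SE 0.16, limma, adjusted p = 0.145). It stood at 944, 1148 and 1576 CPM in WT and at 1737, 1939 and 2228 CPM in SOD1G93A mice. The groups did not overlap, as for 6 of the 2658 genes tested (0.226%). In the deep nuclei alone the log2 fold change was 0.89 (adjusted p = 0.0915), in the shallow nuclei 0.10 (adjusted p = 0.990), and in neurons 0.03 (adjusted p = 1.00). In the other astrocytes it was -0.06 (SE 0.11, limma, adjusted p = 0.840). The difference of the effect between sub-cluster 2 and the other astrocytes did not pass (0.71, SE 0.16, limma, adjusted p = 0.217).

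Neither call held in most of the fits on fewer mice or on part of the nuclei. Sod1 kept an adjusted p below 0.1 in 3 and Epha6 in 4 of the 12 fits that each left out 1 mouse, with log2 fold changes of 1.12 to 1.70 and 0.89 to 1.14. Over shallow nuclei alone 0 of 664 genes were called with limma (23 at an unadjusted p below 0.05), Sod1 had a log2 fold change of 1.02 (adjusted p = 0.990), and Epha6 had too few UMIs to be tested. Over deep nuclei alone Sod1 had 1.81 (adjusted p = 0.291) and Epha6 1.08 (adjusted p = 0.125), and of 1781 genes Nav3 was the 1 called. With edgeR 0 of 2658 genes were called (109 at an unadjusted p below 0.05), with a log2 fold change of 1.30 for Sod1 and 1.02 for Epha6 (adjusted p = 0.221 for both). Without the pool term limma called 0 genes (137 at an unadjusted p below 0.05), with 1.62 for Sod1 (adjusted p = 0.899) and 1.06 for Epha6 (adjusted p = 0.107).

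**Figure D4:**
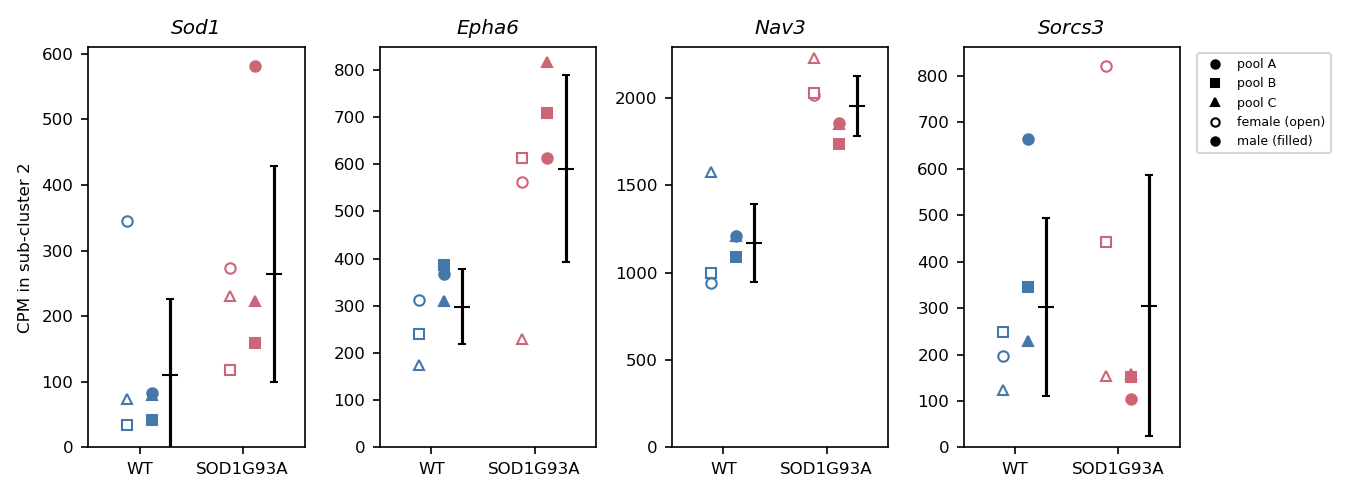
CPM of Sod1, Epha6, Nav3 and Sorcs3 in sub-cluster 2 of each mouse by genotype, with open symbols for females, filled for males and a shape per pool, and the mean ± SD (n = 6) to the right. Nav3 does not overlap between the genotypes (at most 1576 against at least 1737 CPM), as for 0.226% of the genes tested. Sod1 and Epha6 overlap through 1 mouse each. Sorcs3 is lower in the 3 male SOD1G93A mice (at most 159 CPM) than in the 3 male WT mice (at least 230 CPM). Males of the genotypes do not overlap for 9.86% of the genes tested.

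The 3 astrocyte markers did not pass. Aqp4 had a log2 fold change of 0.57 (SE 0.27, limma, adjusted p = 0.943), Gfap of 0.28 (SE 0.43, adjusted p = 0.965) and Slc1a2 of 0.15 (SE 0.17, adjusted p = 0.961). In the other astrocytes taken as 1 sum Aqp4 (0.77, adjusted p = 1.14e-04) and Gfap (1.09, adjusted p = 8.37e-07) rose. The mean shares of the sub-clusters in that sum differed by genotype, as given below, and their part in these rises was not tested. The test of the difference did not pass for either gene (limma, adjusted p = 0.965 and 0.991), and its estimates were -0.16 (SE 0.30) for Aqp4 and -0.09 (SE 0.65) for Gfap. That fit takes both sums of each mouse, with a term per mouse, and its estimate for Gfap differs from the gap between the separate values of 0.28 and 1.09, a discrepancy whose cause was not tested. The Gfap effect in sub-cluster 2 was 2.04 (SE 0.59) in males and -1.48 (SE 0.66) in females, a difference that did not pass either (adjusted p = 0.436) but was called with no filter on low counts.

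Of the 27 gene lists, 2 held a called gene, which was Sod1 in both, in the antioxidant list and among the astrocyte genes that the study itself reported. That last list was chosen by the study on these mice and is no independent evidence of direction. Of its 13 genes 8 had enough UMIs to be tested, with a median log2 fold change of 0.20 against -0.01 over all genes. Among them Mt1, a metallothionein that binds zinc, had 0.42 (adjusted p = 0.951, limma), Clu, which encodes the secreted chaperone clusterin, 0.27 (adjusted p = 0.961), and Cdh22, a cadherin, -0.15 (adjusted p = 0.965).

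Among the astrocyte identity genes 7 of 10 could be tested and 0 were called, with a median log2 fold change of 0.18. Slc1a3, the second astrocyte glutamate transporter, had 0.76 (SE 0.29, limma, adjusted p = 0.876) in sub-cluster 2 and -0.23 (adjusted p = 0.323) in the other astrocytes. The difference of the Slc1a3 effect between sub-cluster 2 and the other astrocytes did not pass (0.88, SE 0.28, limma, adjusted p = 0.494). Of 9 protoplasmic genes tested 0 were called. Gpc5, a glypican of this list with 10052 UMIs in sub-cluster 2, stood at 5537, 6778 and 10321 CPM in WT and at 3072, 4514 and 7684 CPM in SOD1G93A mice. The groups overlapped, Gpc5 was lower in the SOD1G93A mouse in 5 of 6 pairs, and its log2 fold change was -0.59 (SE 0.16, limma, adjusted p = 0.309), against -0.79 (adjusted p = 2.77e-05) in the other astrocytes. Gpc5 was called in sub-cluster 2 with no filter on low counts (-0.63, limma, adjusted p = 0.0132) and without the male SOD1G93A mouse of pool B (-0.75, adjusted p = 0.0631).

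The lists of neighbouring cells had no called genes under the settings used for the counts above. The 7 neuron markers had a median log2 fold change of -0.13, and their summed level was 5977 to 10823 CPM in WT and 4457 to 10958 CPM in SOD1G93A mice. The 4 oligodendrocyte markers tested had a median of -0.71, with Mobp, a myelin-associated protein, at -0.90 (SE 0.41, limma, adjusted p = 0.943), and St18, a transcription factor, at -1.33 (SE 0.56, adjusted p = 0.943). St18 was called in the fit with no filter on low counts, and also in the filtered fit that left out the male SOD1G93A mouse of pool B. The list summed to 969 to 2447 CPM in WT and 538 to 1465 CPM in SOD1G93A mice. Of 17 glutamate receptor genes tested 0 were called, with a median of -0.09. The astrocyte identity genes summed to 2641 to 4327 CPM in WT and 3347 to 5532 CPM in SOD1G93A mice.

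The effect of genotype was next compared between sub-cluster 2 and the other astrocytes of the same mice. None of 5771 genes was called for a difference with limma (0.0%, 345 at an unadjusted p below 0.05), edgeR or DESeq2. In the other 1335 astrocytes taken alone, 441 of 8259 genes were called (5.34%), of which 257 were higher (3.11%) and 184 lower (2.23%). The mix of these astrocytes differed by genotype in its mean shares, which were not tested. Sub-cluster 1 made up a mean of 36.9% of the astrocyte nuclei of a WT mouse and 14.7% of those of a SOD1G93A mouse. The means were 30.5 and 35.6% for sub-cluster 0, 9.35 and 18.9% for sub-cluster 3, and 7.53 and 17.6% for sub-cluster 4. Over the mice of each genotype the ranges overlapped for sub-clusters 0 and 4. They did not overlap for sub-cluster 1 (26.9 to 42.6% in WT, 4.81 to 21.6% in SOD1G93A mice) and sub-cluster 3 (7.56 to 12.0% and 13.4 to 31.1%). The part of this mix in the effects on the other astrocytes, and in the difference, was not tested. The precision also differed between sub-cluster 2 and the other astrocytes. Over the 2646 genes tested in both, the median SE of the log2 fold change was 0.27 in sub-cluster 2 and 0.14 in the other astrocytes. The test of the difference was done on nuclei whose division used the expression of these genes.

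The sexes differed in sub-cluster 2 by 3 of 2658 genes (0.113%), all of them on the sex chromosomes. Xist, the RNA that silences an X chromosome, was higher in females by a log2 fold change of 4.99, and the Y-linked Uty and Eif2s3y were lower by -4.26 and -3.62 (limma, adjusted p = 1.16e-06, 2.80e-04 and 0.0148). Of 2567 genes outside X and Y, 0 were called with limma (128 at an unadjusted p below 0.05), and edgeR called 3 genes in all.

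The genotype effect differed between the sexes for 1 of 2658 genes (0.0376%), Sorcs3 (chromosome 19, 48206025 to 48805505), a sorting receptor of the sortilin family found in neurons. The effect was a log2 fold change of -1.62 in males and 1.38 in females, a difference of -2.99 (limma, adjusted p = 0.0306). Sorcs3 stood at 413 ± 224 CPM in male WT and 138 ± 30.1 CPM in male SOD1G93A mice (n = 3 each), and at 190.2 ± 63.0 CPM in female WT and 472 ± 335 CPM in female SOD1G93A mice. The 3 male SOD1G93A mice (103, 151 and 159 CPM) were below the 3 male WT mice (230, 346 and 663 CPM), as males of the genotypes did not overlap for 262 of the 2658 genes tested (9.86%), while the females of both genotypes overlapped (124, 197 and 249 CPM in WT and 154, 441 and 822 CPM in SOD1G93A mice).

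Of the UMIs of Sorcs3, 493 lay in deep and 19 in shallow nuclei. Without 1 mouse the difference ran from -3.30 to -2.48 and kept an adjusted p below 0.1 in 7 of 12 fits. With edgeR it was -2.80 (adjusted p = 0.179), with DESeq2 -2.77 (adjusted p = 0.122) and in the deep nuclei alone -2.85 (adjusted p = 0.137, limma).

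Sub-cluster 2 weighed on the tests that joined all astrocytes, as did sub-clusters 0, 1 and 3. With all nuclei, 214 of 9347 genes were called for genotype (2.29%), 129 higher (1.38%) and 85 lower (0.909%), and without sub-cluster 2 the 441 of 8259 given above. Without its 60 deep nuclei alone 406 of 8720 genes were called, and without its 160 shallow nuclei 211 of 9006. For comparison, 430 of 7745 genes were called without sub-cluster 0, 5 of 9295 without 1, 82 of 8607 without 3 and 186 of 8808 without 4.

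A gene whose test turned on sub-cluster 2 was Hpse2 (chromosome 19, 42786539 to 43388355), which encodes heparanase 2, a secreted protein that binds heparan sulfate, and which was the first of the 20 leading genes. All astrocytes together held 163 UMIs of Hpse2, and sub-cluster 2 held 115 of them. A single deep nucleus of the male WT mouse of pool A held 89, and the next highest nucleus, from the female SOD1G93A mouse of pool A, held 14. The first of these nuclei had 32993 UMIs in all, with 370 of the neuron markers and 62 of the astrocyte identity genes. In sub-cluster 2 Hpse2 stood at 121 ± 315 CPM (n = 11). The median mouse stood at 6.59 CPM, below the mean of 9.13 CPM in sub-cluster 0. Hpse2 was highest in sub-cluster 2 in 4 of 9 mice. No other leading gene had over 50% of its UMIs in 1 nucleus.

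Over all astrocytes, the genotype effect on Hpse2 differed between the sexes, by -3.72 (male minus female, SE 0.64, limma, adjusted p = 0.0559). Without that 1 nucleus the difference was -0.36 (SE 0.94, limma, adjusted p = 0.999), and 0 of 9340 genes were called for such a difference (312 at an unadjusted p below 0.05). The level in astrocytes of the male WT mouse of pool A was 64.7 CPM with the nucleus and 2.16 CPM without it, where the other 5 WT mice had 4.01 to 21.3 CPM. Without sub-cluster 2, or without its deep nuclei, Hpse2 fell below the filter on low counts and could not be tested.

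**Figure D5:**
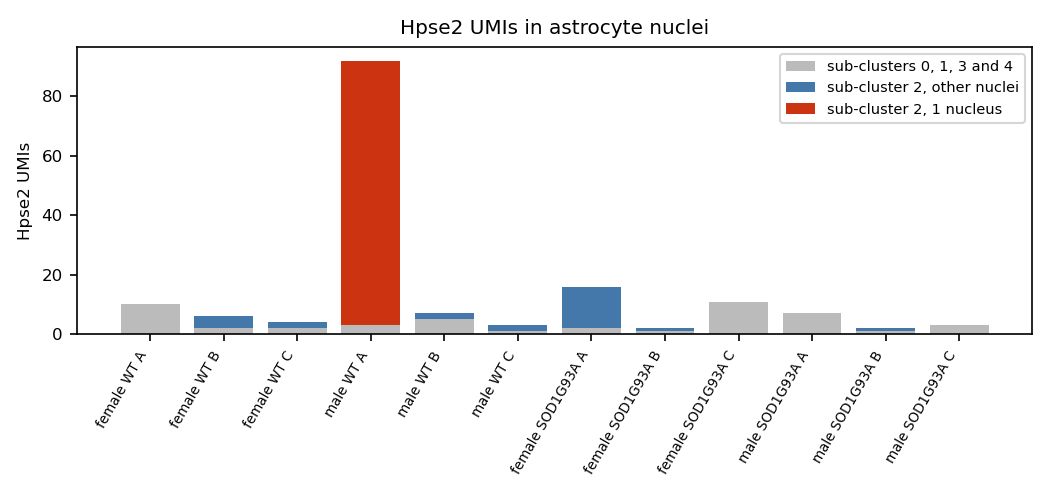
Hpse2 UMIs in the astrocyte nuclei of each mouse, as bars from 0 divided into sub-clusters 0, 1, 3 and 4 (grey), sub-cluster 2 without 1 nucleus (blue) and that nucleus (red). The red part, 89 of the 163 UMIs, lies in the male WT mouse of pool A, and 14 UMIs of sub-cluster 2 lie in the female SOD1G93A mouse of pool A.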

How the data were processed

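Nuclei were isolated from frozen lumbar cord, tagged with hashtags per mouse and captured with 10x v3 chemistry. The authors aligned reads to a pre-mRNA version of mm10 (STAR 2.5.1b, Cell Ranger 3.1) and deposited UMI counts per gene and nucleus, with introns counted and no normalization. The authors assigned nuclei to mice from hashtag counts (Seurat 4.0.3), removed nuclei with few genes, many mitochondrial UMIs, several hashtags or none, and deposited the percent of mitochondrial UMIs per nucleus, the cell types and the sub-clusters. Deposited sctransform values were not used, since sums need counts, and 0 columns of the count table lay outside the listed nuclei.

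Here UMIs were summed per mouse and sub-cluster. Genes were kept with edgeR 4.0.16 (filterByExpr, minimum count of 10), scaled with TMMwsp and fitted with limma 3.58.1 (voom, robust eBayes) in R 4.3.3, with terms for the 4 groups of sex and genotype and for pool, at a Benjamini-Hochberg adjusted p below 0.1. The difference from the other astrocytes was fitted on both sums of each mouse. DESeq2 1.42.0 and edgeR's quasi-likelihood test were alternatives. The scripts were tested on simulated counts. Genes under 50 CPM or 10 UMIs were not ranked as leading genes, and 5 CPM were added to both levels. Gene positions are those of the GENCODE annotation of mm10. Counting error and few nuclei limit the precision in the mice with least UMIs.

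Pool is a batch named by the labels and was a block in the main fits. Deviations of mice from their group means had a median correlation of 0.0417 over 18 pairs of the same pool and -0.0358 over 36 pairs of different pools.

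Genes named are Aqp4, Gfap and Slc1a2, the 20 leading and 10 lowest genes, Sod1, called genes that changed the same way in 3 of 3 pools or lead the sex and interaction tests, members of 27 gene lists with the smallest p or largest difference from the other astrocytes, and genes the study named. Others are said to be named after their values were seen. The sub-cluster and the lists were chosen with earlier results of these data known. Some genes that the rule names are not reported here.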

Additional observations from a re-analysis of the deposited data

Results flagged for a closer look

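Of 22 sets of 6 mice examined for a value far from the rest (11 measures in each genotype), 4 held 1. The limit used gives about 1 in 20 for normally distributed values of measures fixed beforehand. Some of these measures, such as Hpse2, were picked from the same data, so that rate does not apply to them. The share of astrocytes in sub-cluster 2 was 31.5% in the male SOD1G93A mouse of pool B, against 5.56 to 14.4% in the other 5 SOD1G93A mice. Sod1 in sub-cluster 2 stood at 345 CPM in the female WT mouse of pool A, against 34.2 to 82.9 CPM in the other WT mice, and at 581 CPM in the male SOD1G93A mouse of pool A, against 119 to 274 CPM. Hpse2 over all astrocytes stood at 64.7 CPM in the male WT mouse of pool A, against 4.01 to 21.3 CPM, and 89 of its UMIs lay in 1 nucleus. The genotype effect differed between males and females for Sorcs3 in sub-cluster 2 (-2.99 on the log2 scale, limma, adjusted p = 0.0306) and for Hpse2 over all astrocytes (-3.72, limma, adjusted p = 0.0559, and -0.36, adjusted p = 0.999, without that nucleus).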

How the results depend on the processing

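The count of genes called for genotype in sub-cluster 2 (2 with limma) was 2 with TMM or quality weights (Sod1 and Epha6), and 2 with DESeq2 or a minimum count of 30, where Nav3 took the place of Sod1 (adjusted p of Sod1 = 0.119 and 0.568). It was 0 with edgeR (109 at an unadjusted p below 0.05), 0 without the robust option (140), 28 of 17906 with no filter on low counts, of which 1 (Sod1) was among the 2 and 1 was Gpc5, and 27 of 4090, with both of the 2, in the 8 mice with at least 10 nuclei, where the only female SOD1G93A mouse is assumed to vary like the other groups. Without the pool term as a replicate block it was 0 (137 at an unadjusted p below 0.05), and without 1 mouse it ran from 0, for 6 of the 12 mice, to 8, with Nav3 and Gpc5 among them, without the male SOD1G93A mouse of pool B. Chosen after seeing the data, sums of only nuclei of at most 8000 UMIs gave 0 and of only nuclei over 8000 UMIs 1.

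The count for the difference between the sexes in the genotype effect (1) was 0 with edgeR (97 at an unadjusted p below 0.05), 0 with DESeq2 (70), 0 without the pool block (109), 12 with no filter, Gfap among them, 18 in the 8 mice, 0 in nuclei on either side of 8000 UMIs, and 0 to 3 without 1 mouse, with 3 without the male SOD1G93A mouse of pool B. The sex count (3) was 4 without the pool block and 2 to 11 without 1 mouse, with 8 and 5 without the male WT mice of pools A and C and 11 without the male SOD1G93A mouse of pool B. The count for the difference from the other astrocytes (0) was 2 with no filter and 0 to 2 without 1 mouse. Over all astrocytes the count of 214 became 430, 5, 441 and 82 without sub-cluster 0, 1, 2 or 3, and 406 without the deep nuclei of sub-cluster 2, alternatives also chosen after seeing the data. With 20 CPM added in place of 5, 11 of the 20 leading genes remained, with 1 CPM 19, and 16 against the mean of the other sub-clusters. The effects of 2 uncalled genes changed sign. Aqp4 was -0.091 in the 8 mice and -0.075 in nuclei of at most 8000 UMIs, and Gfap was -0.43 in the 8 mice, -0.060 without the pool block and -0.14 to 0.93 without 1 mouse. The cause of these changes was not tested. The log2 ratio of the mean shares (SOD1G93A over WT) was -0.25, and -0.71 to -0.05 without 1 mouse. The planned test of the share, edgeR's quasi-likelihood test with terms for group and pool, was not run, since a leading gene passed the genotype test over all astrocytes. Depth limits every test, with 13014 UMIs in the mouse with least.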
